A study of Mus musculus with 6 samples.

Results

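Adrenergic receptors are the cell surface receptors for noradrenaline, which sympathetic nerves release onto the vessel wall, and for adrenaline from the adrenal gland. The alpha1 receptors (Adra1a, Adra1b, Adra1d) couple to Gq proteins and phospholipase C and make smooth muscle contract. The alpha2 receptors (Adra2a, Adra2b, Adra2c) couple to Gi proteins, lower cAMP and, on nerve endings, restrain the release of noradrenaline. The beta receptors couple to Gs proteins and raise cAMP, which relaxes smooth muscle, and Adrb3 is known above all for lipolysis and heat production in adipocytes. The 8 genes studied here were taken by symbol from a table of 55335 genes, and each symbol stood in 1 row. Adrb1 and Adrb3 were the beta receptors among them.

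The libraries came from the aorta of wild-type C57BL/6 mice, 3 aged 6 weeks (young) and 3 aged 6 months (aged), with 1 library per mouse. According to the study, all mice were male, were killed under anesthesia with xylazine, itself an agonist of alpha2 receptors, and had the fat around the aorta dissected. No gene was altered, and age was the comparison.

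Reads counted on genes summed to between 31049632 and 45832185 per library. Smooth muscle markers were abundant in each library, with the sum of 6 markers between 27333 and 39324 CPM (counts scaled to a common library size after TMM normalization). This was a check for smooth muscle only, and no gene particular to the aorta was read. Young replicate 1 stood apart from the rest. Xist, the RNA of the inactive X chromosome of females, was at 305.6 CPM there and at 0.204 to 0.636 CPM in the other libraries. The Y-linked gene Ddx3y was at 1.09 CPM there and at 44.8 to 65.6 CPM elsewhere, so this library went against the stated male sex. The clock gene Arntl reached 49.8 CPM in that library, and elsewhere its level lay from 0.747 to 8.14 CPM. Aged replicate 2 stood apart in brown fat genes, as given below beside Adrb3. Receptor results that turn on these libraries are given with and without them. The share of counts on the mitochondrial genome was 14.9% to 21.2% in young and 23.1% to 30.4% in aged aorta, so it did not overlap between the ages.

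Adra1d was the main adrenergic receptor RNA of the aorta. Its length-scaled level (FPKM, as the authors made it) averaged 15.5 ± 11.7 (SD, n = 6), above 87.0% of the 16612 tested genes, whose median was 2.73. Adrb3 came next at 2.04 ± 2.49, then Adra1b at 0.770 ± 0.307, Adrb1 at 0.381 ± 0.170, Adra2a at 0.302 ± 0.154, Adra1a at 0.237 ± 0.277, Adra2c at 0.194 ± 0.149 and Adra2b at 0.0512 ± 0.0868 FPKM (SD, n = 6 each). Adra1d was above Adrb3 in 6 of 6 libraries and Adra2c above Adra2b in 6 of 6. The neighbours between them were not separated by their spread, since Adrb3 exceeded Adra1b in 3 of 6 libraries, Adra1b exceeded Adrb1 in 5, Adrb1 exceeded Adra2a in 3, Adra2a exceeded Adra1a in 3 and Adra1a exceeded Adra2c in 4.

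Of the summed FPKM of the 8 receptors, Adra1d made up 91.0%, 80.1% and 83.7% in young replicates 1, 2 and 3. It made up 82.8%, 49.9% and 74.7% in aged replicates 1, 2 and 3. Adrb3 held 37.6% in aged replicate 2, against 2.77% to 9.23% elsewhere. Within the alpha1 class, Adra1d held between 87.1% and 96.9% of the FPKM in every library.

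**Figure D1:**
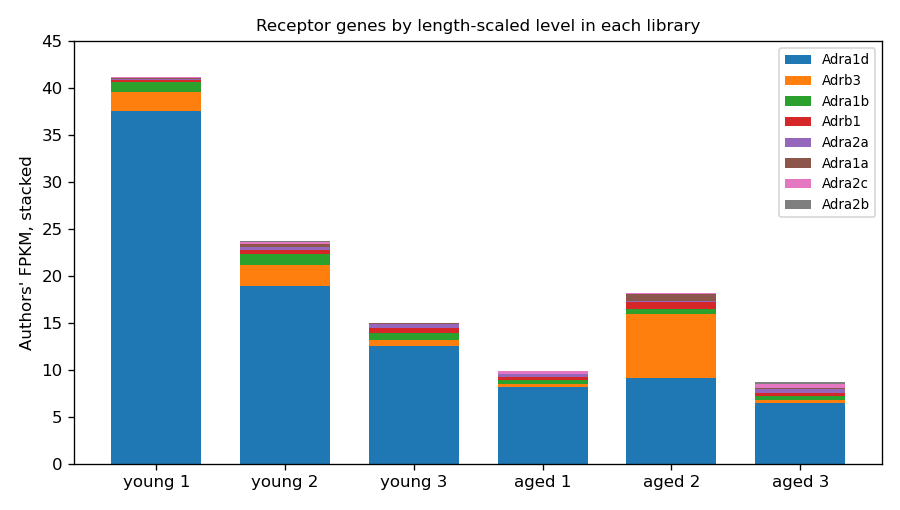
FPKM of the 8 adrenergic receptor genes stacked for each library (vertical axis: the authors' FPKM; horizontal axis: 3 young and 3 aged libraries). Adra1d is the largest block in each library, and Adrb3 reaches 6.83 FPKM in aged replicate 2.

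Adra1d, the alpha1D receptor that mediates contraction to noradrenaline in the rodent aorta, was lower in every aged than in every young library. It lies on chromosome 2 of GRCm38 from 131545850 to 131562283, on the minus strand, in GENCODE M21. Its counts were 3638, 1282 and 820 in young replicates 1, 2 and 3 and 606, 762 and 431 in aged replicates 1, 2 and 3. As CPM these were 75.1, 36.8 and 23.9 in young and 18.2, 20.2 and 15.3 in aged aorta. The groups did not overlap, but the young libraries differed among themselves by far more than the aged ones. The mean was 45.3 ± 26.6 CPM in young and 17.9 ± 2.49 in aged aorta (SD, n = 3 each), which is 2.53-fold higher in young aorta.

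For Adra1d the log2 fold change of aged over young aorta was -1.34 with a standard error of 0.40. The unadjusted p of edgeR's quasi-likelihood test was 0.0115, and after Benjamini-Hochberg adjustment over all tested genes it was 0.383, so the gene did not pass the threshold of 0.05. With DESeq2 the adjusted p was 0.0536. Without young replicate 1, which had the highest level, the difference was smaller, with a log2 fold change of -0.75, a mean 1.70-fold higher in young aorta and an adjusted p of 0.397 from edgeR. In bulk tissue, fewer cells of a type and less RNA per cell cannot be told apart.

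Smooth muscle markers moved in the same direction as Adra1d. Of the 6 markers (Acta2, Tagln, Myh11, Cnn1, Smtn and Des), 6 had a negative log2 fold change, with a median of -0.19, and 0 passed the test. Their summed level was between 31075 and 39324 CPM in young and between 27333 and 32705 CPM in aged aorta. Set against this sum, Adra1d stood at 2.42, 1.10 and 0.608 CPM per 1000 CPM of markers in young replicates 1, 2 and 3. It stood at 0.558, 0.710 and 0.558 in aged replicates 1, 2 and 3, so on this scale, which was chosen after the values were seen, the groups overlapped. Set against Myh11 alone, the smooth muscle myosin heavy chain, young replicate 3 was lowest of all at 2.36, with the aged libraries between 2.48 and 2.81. Myh11 was itself lower in every aged library, the only 1 of the 6 markers whose groups did not overlap, against 16.5% of all genes in either direction. Its log2 fold change was -0.44 (unadjusted p = 0.0477, adjusted p = 0.474, edgeR). The groups of Smtn overlapped only narrowly, with 1255.5 CPM in young replicate 1 and 1255.9 CPM in aged replicate 3 (unadjusted p = 0.0309, adjusted p = 0.443, edgeR). At an unadjusted p below 0.05 (edgeR) there were 2 of 6 markers, both lower in aged aorta, against 10.4% of all genes. The markers ran from -0.61 for Smtn to -0.01 for Tagln, against -1.34 for Adra1d.

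Cardiac muscle markers were highest in young replicate 1, where Adra1d was also highest. The sum of Myh6, Actc1, Tnnt2 and Tnni3 was 290 CPM there, against 44.3 to 59.5 CPM elsewhere. Their part in the level of Adra1d was not tested, nor was that of sex or clock genes, which set the same library apart. With genes of the mitochondrial genome left out of the counts, the log2 fold change of Adra1d was -1.34. TMM scaling rests on most of the genes, so leaving out these few could change this value little. The part of the mitochondrial share, which did not overlap between the ages, was not tested. The antisense gene Gm14285 overlaps 147 exonic bases of Adra1d and had between 9 and 20 counts per library.

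Adra1b, the alpha1B receptor, was also lower in every aged library. It lies on chromosome 11 from 43774606 to 43901210. Its counts in young replicates 1, 2 and 3 were 188, 146 and 89, or 3.88, 4.20 and 2.59 CPM. Those in aged replicates 1, 2 and 3 were 63, 91 and 61, or 1.90, 2.41 and 2.16 CPM. The closest libraries were young replicate 3 and aged replicate 2, so the groups stood apart by a small gap. The mean was 3.56 ± 0.849 CPM in young and 2.16 ± 0.258 in aged aorta (SD, n = 3 each). This gave a log2 fold change of -0.72 with a standard error of 0.32 (unadjusted p = 0.0550, adjusted p = 0.491, edgeR). Relative to the smooth muscle marker sum the groups of Adra1b overlapped as well, with 0.0659 to 0.125 CPM per 1000 CPM in young and 0.0580 to 0.0848 in aged aorta.

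RefSeq places starts of Adra1b at separate sites of GRCm38.p6, and a window before the start was found for 5 of the 8 receptor genes, all but Adra1a, Adra1d and Adrb3. The 250 bases before each start of Adra1b are shown because the gene counts pool its transcripts. They are written 5′ to 3′ on the minus strand, with capitals marking the GC box letters GGGCGG or their reverse complement CCGCCC, where present.
Adra1b upstream start, chr11:43901238-43901487: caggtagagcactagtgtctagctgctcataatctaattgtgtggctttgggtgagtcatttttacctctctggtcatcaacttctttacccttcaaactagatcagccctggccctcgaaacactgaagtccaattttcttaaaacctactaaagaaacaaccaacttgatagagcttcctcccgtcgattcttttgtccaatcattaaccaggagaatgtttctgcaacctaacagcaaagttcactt
Adra1b downstream start, chr11:43836490-43836739: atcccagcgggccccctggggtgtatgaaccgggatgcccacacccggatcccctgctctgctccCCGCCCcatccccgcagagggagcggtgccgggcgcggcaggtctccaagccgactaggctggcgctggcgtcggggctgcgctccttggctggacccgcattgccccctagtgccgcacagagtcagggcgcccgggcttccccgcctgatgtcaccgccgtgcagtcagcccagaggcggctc
The upstream window had 41.6% G and C bases with 0 matches, and the downstream window 72.8% with 1 match. Among all 32851 windows of this length, the median was 52.4% G and C, and 32.7% held the GC box letters on either strand.

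Adra1a, the alpha1A receptor, did not follow the other alpha1 genes. It lies on chromosome 14 from 66635251 to 66771168. Its counts in young replicates 1, 2 and 3 were 62, 117 and 16, and those in aged replicates 1, 2 and 3 were 10, 289 and 32. As CPM these were 1.28, 3.36 and 0.466 in young and 0.301, 7.66 and 1.13 in aged aorta, a 25.5-fold range in which the groups overlapped. Aged replicate 2 was 10.7-fold above the mean of the other aged libraries. The log2 fold change was 0.84 with a standard error of 1.14 (adjusted p = 0.810, edgeR), and without aged replicate 2 it was -1.25 (adjusted p = 0.610).

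**Figure D2:**
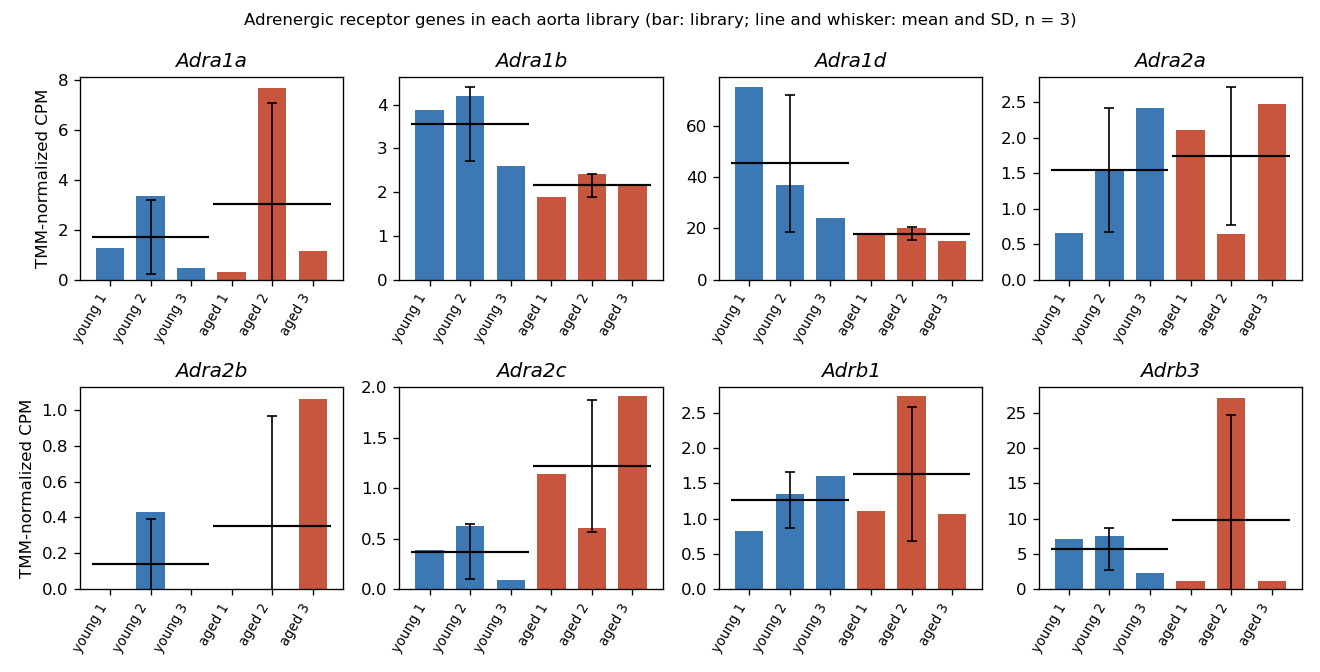
CPM of each adrenergic receptor gene (vertical axis, TMM-normalized CPM) in the 3 young (blue bars) and 3 aged (red bars) libraries, with a line for the group mean and a whisker for its SD, cut at 0. Adra1d and Adra1b are lower in every aged library, and Adra1a and Adrb3 are highest in aged replicate 2.

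Adrb3, the beta3 receptor of adipocytes, varied more between mice than between ages. It lies on chromosome 8 from 27225776 to 27250616. Its counts in young replicates 1, 2 and 3 were 348, 264 and 79, or 7.18, 7.59 and 2.30 CPM. Those in aged replicates 1, 2 and 3 were 37, 1021 and 32, or 1.11, 27.1 and 1.13 CPM. Aged replicate 2 was 24.1-fold above the mean of the other aged libraries, which in turn lay below each young library.

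For Adrb3 the log2 fold change was 0.78 with a standard error of 1.19 (adjusted p = 0.834, edgeR). Without aged replicate 2 it turned to -2.34 (unadjusted p = 0.00583, adjusted p = 0.173, edgeR), with a mean 5.07-fold higher in young aorta. DESeq2 gave no p for this gene. An antisense gene, Gm45470, shares 839 exonic bases with Adrb3 and had 161 counts in aged replicate 2, against 13 to 51 elsewhere. The strand setting of the counting is not given in the sources used here, so reads of the pair cannot be told apart.

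Most brown fat markers were highest in the library where Adrb3 was highest, and white fat markers were divided. Ucp1, the uncoupling protein of brown fat, was at 153, 361 and 45.2 CPM in young replicates 1, 2 and 3 and at 48.6, 1422 and 67.4 CPM in aged replicates 1, 2 and 3. The sum of 6 brown adipocyte markers was between 132 and 630 CPM in young aorta and between 180 and 1951 CPM in aged aorta, with none of the markers at 0. Of these 6, 5 were highest in aged replicate 2. The exception was Dio2, the deiodinase that activates thyroid hormone, at 48.0, 52.3 and 49.8 CPM in young and 109, 42.3 and 86.1 CPM in aged replicates 1, 2 and 3, and thus lowest in aged replicate 2. The sum of 6 white adipocyte markers was between 134 and 657 CPM in young and between 156 and 471 CPM in aged aorta. It was highest in young replicate 2, and 3 of the 6 white markers were highest in aged replicate 2. Per 1000 CPM of Ucp1, Adrb3 ranged from 16.8 to 51.0 CPM, a 3.03-fold range, against 24.3-fold for Adrb3 itself. On this scale, which was not set in advance, young replicates 1, 2 and 3 stood at 47.0, 21.0 and 51.0. Aged replicates 1, 2 and 3 stood at 22.9, 19.0 and 16.8. The mean was 39.7 ± 16.2 in young and 19.6 ± 3.09 in aged aorta (SD, n = 3 each), and the groups overlapped. Adra1a per 1000 CPM of Ucp1 ranged from 5.39 to 16.8 CPM, or 3.12-fold. The part of fat in these levels was not tested.

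**Figure D3:**
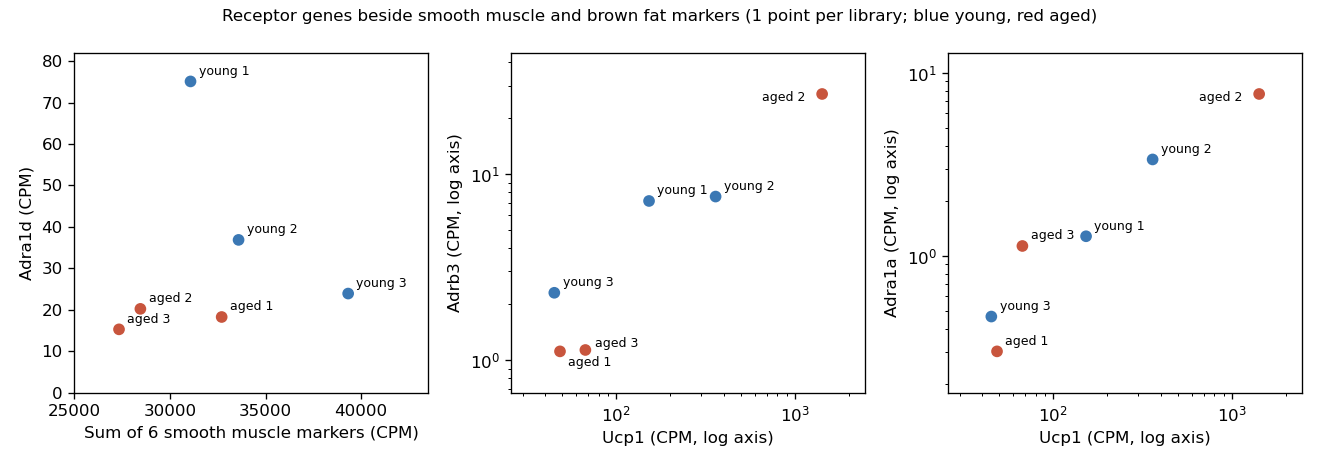
Adra1d against the sum of 6 smooth muscle markers (linear axes, CPM), and Adrb3 and Adra1a against Ucp1 (log axes, CPM), with 1 point per library, young in blue and aged in red. Adra1d is highest in young replicate 1 at 75.1 CPM, and aged replicate 2 is highest in Ucp1, Adrb3 and Adra1a.

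Adrb1, the beta1 receptor best known from the heart, was low, and its groups overlapped. It lies on chromosome 19 from 56722199 to 56733113. Its counts were 40, 47 and 55 in young aorta and 37, 103 and 30 in aged aorta, in the order of the replicates. As CPM these were 0.826, 1.35 and 1.60 in young and 1.11, 2.73 and 1.06 in aged aorta. Aged replicate 2 was again the highest. The mean was 1.26 ± 0.396 CPM in young and 1.63 ± 0.949 in aged aorta (SD, n = 3 each), and the log2 fold change was 0.38 with a standard error of 0.52 (adjusted p = 0.812, edgeR). Without aged replicate 2 the log2 fold change was -0.21 (adjusted p = 0.890). In young replicate 1, where cardiac markers were highest, Adrb1 had its lowest level.

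Of the alpha2 receptors, Adra2a, on chromosome 19 from 54044151 to 54048982, is a form that acts as an autoreceptor on sympathetic nerve endings. Its counts were 32, 54 and 83 in young aorta and 70, 24 and 70 in aged aorta, in the same order. As CPM these were 0.661, 1.55 and 2.42 in young and 2.11, 0.636 and 2.48 in aged aorta. The groups overlapped, and Adra2a was lowest in aged replicate 2 and young replicate 1. The log2 fold change was 0.17 with a standard error of 0.66 (adjusted p = 0.940, edgeR). It was -0.19 without young replicate 1, 0.58 without aged replicate 2 and -0.17 without aged replicate 3.

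Adra2c, the alpha2C receptor, lies on chromosome 5 from 35278319 to 35281763. Its counts were 19, 22 and 3 in young aorta and 38, 23 and 54 in aged aorta, or 0.392, 0.632 and 0.0874 CPM against 1.14, 0.610 and 1.91 CPM. Aged replicate 2 lay just under young replicate 2, so the groups overlapped. The log2 fold change was 1.70 with a standard error of 0.78 (unadjusted p = 0.0628, adjusted p = 0.506, edgeR), on few reads. Adra2b, on chromosome 2 from 127363208 to 127367221, was too low to be tested. It had 15 counts in young replicate 2, 30 in aged replicate 3 and 0 in the other libraries. A count of 0 there allows up to 3 counts, or between 0.0619 and 0.0903 CPM, for counting error only.

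Over the whole family, 7 of 8 receptor genes passed the filter on low counts, and 0 passed the test at an adjusted p below 0.05, as for all genes (0% of 16612, lowest adjusted p 0.189). At an unadjusted p below 0.05 there was 1 of 7 receptors (Adra1d), where 10.4% of all genes reached this and 4.82% did so while lower in aged aorta. The groups did not overlap for 2 of 7 receptors, both lower in aged aorta, where 8.78% of all genes did so in that direction and 7.74% in the other. DESeq2, which gave no p for Adrb3, called 0 receptors and 2.03% of all genes. Without aged replicate 2, edgeR called 0 receptors and 0.642% of all genes. With so few members these counts describe the family and single out nothing. Log2 fold changes were positive for 5 receptors and negative for 2, with a median of 0.38 against 0.02 over all genes. Over the same 7 genes without aged replicate 2, the median was -0.81, with 2 positive and 5 negative. In that fit Adra2b also passed the filter, and with it the median was -0.51.

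**Figure D4:**
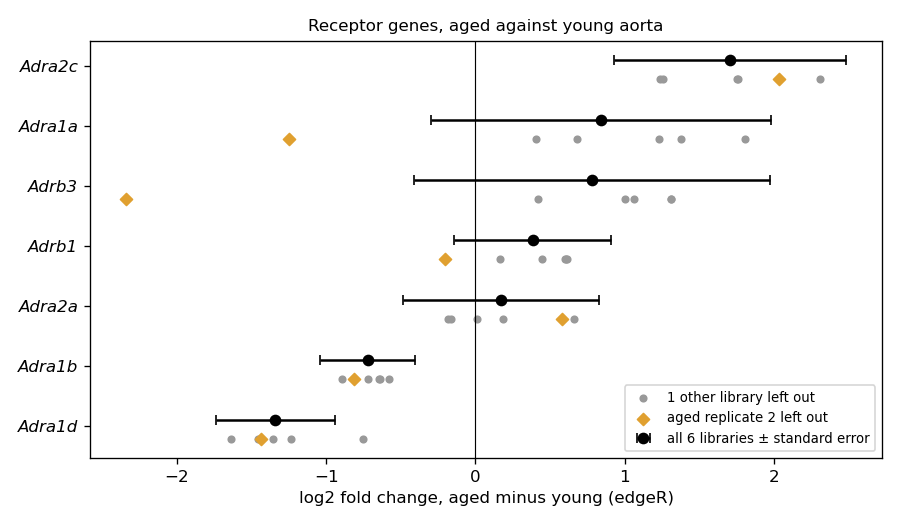
Log2 fold change of aged over young aorta (horizontal axis, edgeR) for the 7 tested receptor genes, with all 6 libraries as a black point and its standard error and with each library left out as smaller points. Adra1d and Adra1b, whose groups do not overlap, stay below 0 in each case and Adra2c above 0. Adrb3, Adra1a and Adrb1 change sign without aged replicate 2 (diamonds).

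The genes that make, store and clear noradrenaline were read next. Of 10 genes, 7 were tested, 0 passed the test, and 5 had positive and 2 negative log2 fold changes, their median being 0.35. Dbh, the enzyme that makes noradrenaline, had 0 counts in each library, and Th, which makes its precursor, was at 0.124 CPM in young replicate 1 and at 0 in the others. The cell bodies of sympathetic neurons lie in ganglia outside the vessel. Slc6a2, the noradrenaline transporter, was at 0.413, 0.604 and 0.291 CPM in young and at 4.39, 0.663 and 1.38 CPM in aged replicates 1, 2 and 3. The groups did not overlap, though aged replicate 2 was close to young replicate 2. Its log2 fold change was 2.29 with a standard error of 0.76 (unadjusted p = 0.0189, adjusted p = 0.406, edgeR).

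Downstream of the alpha1 receptors, phospholipase C beta and IP3 receptors were compared, with 6 of 7 genes tested and 0 past the test. Plcb4, the most abundant of them at 21.9 FPKM, was at 270, 176 and 405 CPM in young and at 86.5, 152 and 169 CPM in aged replicates 1, 2 and 3. It was lower in every aged library by a small gap, and its highest library was young replicate 3, not young replicate 1 as for Adra1d. Its log2 fold change was -1.06 with a standard error of 0.36 (unadjusted p = 0.0211, adjusted p = 0.415, edgeR). The list was even, with 3 genes higher and 3 lower.

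All 9 G protein alpha subunits, which pass the signal from the receptors, were tested, and their log2 fold changes had a median of -0.01, with 0.681 as the lowest adjusted p from edgeR, for Gna13. Gnai2, the most abundant at 66.3 FPKM, was at 303, 252 and 267 CPM in young and at 313, 248 and 274 CPM in aged replicates 1, 2 and 3. The groups overlapped for each of the 9 genes.

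Among genes that make and break down cAMP, the second messenger of the beta receptors, the adenylyl cyclase Adcy5 was the most abundant at 87.0 FPKM and stood at -0.13 on the log2 scale of aged over young (adjusted p = 0.822, edgeR). Adcy9 was at 8.34, 9.69 and 14.8 CPM in young and at 5.12, 5.01 and 7.68 CPM in aged replicates 1, 2 and 3. The aged libraries all lay below the young ones, by -0.88 on the log2 scale with a standard error of 0.30 (adjusted p = 0.415, edgeR). Of the 8 adenylyl cyclases tested, 3 were higher and 5 lower in aged aorta. Of the 7 cAMP phosphodiesterases tested, 4 were higher and 3 lower. Pde8a was at 7.41, 9.94 and 5.62 CPM in young and at 12.8, 17.3 and 16.5 CPM in aged aorta. Its log2 fold change was 1.02 (standard error 0.26, unadjusted p = 0.00581, adjusted p = 0.377, edgeR), and DESeq2 called it with an adjusted p of 0.0426. Pde3a, the most abundant of them by FPKM, had a log2 fold change of -0.19. Of the 6 subunits of protein kinase A, which cAMP activates, Prkar2a had the smallest p at a log2 difference of -0.45 (adjusted p = 0.443, edgeR), and Prkar1a was the most abundant at 70.8 FPKM with -0.04.

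Receptor kinases, arrestins and RGS proteins turn the receptors and their G proteins off. All 12 were tested, with 4 higher and 8 lower in aged aorta. Rgs2, which limits Gq signalling, was at 34.9, 46.2 and 30.4 CPM in young and at 55.4, 140 and 91.6 CPM in aged replicates 1, 2 and 3. It was higher in every aged library, most of all in aged replicate 2. Its log2 fold change was 1.36 (standard error 0.34, unadjusted p = 0.00492, adjusted p = 0.377, edgeR), and DESeq2 called it with an adjusted p of 0.0166. Without aged replicate 2 the log2 fold change of Rgs2 was 0.98 (adjusted p = 0.217, edgeR). Rgs5, the most abundant at 122.6 FPKM, had a log2 fold change of -0.02. Rgs4, named after its values were seen, stood at -1.24 on the log2 scale (adjusted p = 0.427, edgeR), with overlapping groups.

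Over these lists together, 55 of 61 genes were tested and 0 passed by edgeR. At an unadjusted p below 0.05 there were 7, or 12.7% against 10.4% of all genes, with 3 log2 fold changes above 0 and 4 below. The groups did not overlap for 8 of 55, or 14.5% against 16.5% of all genes. The median log2 fold change was -0.02, against 0.02 over all genes. Fibroblast, macrophage and endothelial markers had positive log2 fold changes, 5 of 5 in each list, and 0 passed the test, as for all genes. At an unadjusted p below 0.05 (edgeR) the lists differed. There were 5 of 5 macrophage, 4 of 5 fibroblast and 0 of 5 endothelial markers, against 10.4% of all genes. Their summed levels were 929 to 4599 CPM in aged against 951 to 1297 CPM in young aorta for fibroblasts, and 57.01 to 152 against 38.7 to 47.3 CPM for macrophages, the latter without overlap. For endothelium they were 317 to 1563 CPM in aged, highest in replicate 3, against 377 to 461 CPM in young aorta. Their part in the values of the signalling genes was not tested.

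**Figure D5:**
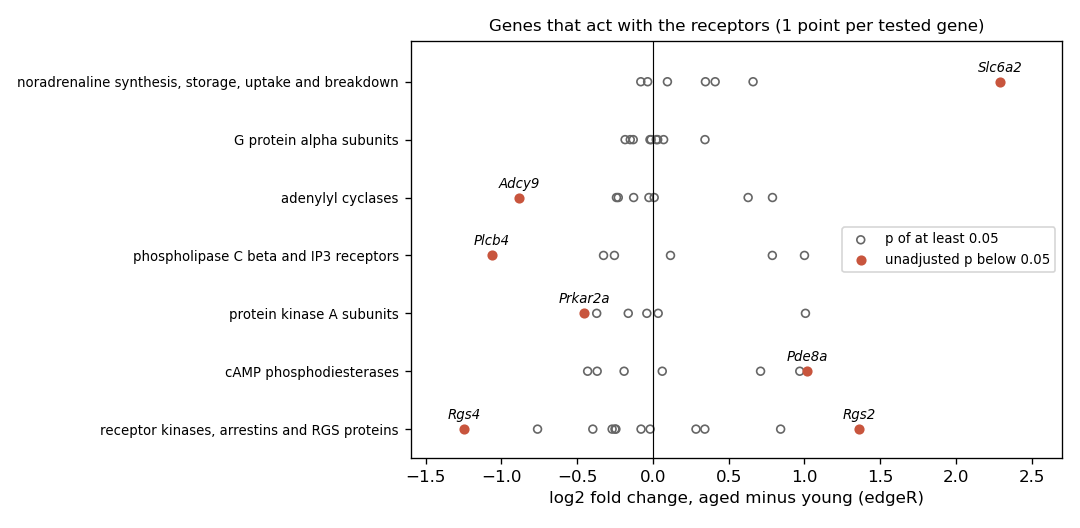
Log2 fold change of aged over young aorta (horizontal axis, edgeR) for 55 tested genes that act with the receptors, in 7 lists, with filled and named points for the 7 genes of unadjusted p below 0.05. Rgs2, Pde8a and Slc6a2 lie to the right of 0, and Plcb4, Adcy9, Prkar2a and Rgs4 to the left, and 0 passed after adjustment.

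For each tested receptor, the tested genes with the most similar pattern were read as a description, by Pearson's r of log2 CPM over 6 libraries. With so few libraries high values are common, and between 17 and 78 genes exceeded 0.95 for each receptor. Adra1d was most like Casq2, a calcium store protein of heart muscle (r = 0.971), and Dcaf11 (r = 0.971). Casq2 too was highest in young replicate 1, and between 0.318 and 1.90 CPM elsewhere. Adra1b was most like Tmem168 (r = 0.992) and Mns1 (r = 0.987). Adrb3 was most like Pnpla3, a lipid droplet protein of fat and liver (r = 0.998), and Slc25a48 (r = 0.995). Pnpla3 was at 36.8 CPM in aged replicate 2, against 0.933 to 8.33 CPM elsewhere. Adra1a was most like Cpn2 (r = 0.994) and Foxf1 (r = 0.993). The closest genes were Rnf13 and Hdlbp for Adra2a, Ankrd6 and 9930012K11Rik for Adra2c, and Plaa and Dnm1l for Adrb1.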

How the data were processed

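RNA from mouse aorta was sequenced single-ended, and the authors deposited raw read counts per gene and FPKM, the count scaled by gene length and library reads. The build was mm10 per the labels. The aligner, counting tool and strand setting are not given in the sources used here. Of 55335 gene identifiers, 55154 matched GENCODE M21 (GRCm38), the source of coordinates. Genes with low counts were removed by filterByExpr of edgeR 4.0.16 (by group, with a minimum count of 10 and a minimum total of 15), and the rest were normalized by TMM and fitted over all 16612 genes by quasi-likelihood in R 4.3.3, without covariates. P values were adjusted by Benjamini-Hochberg, with a threshold of 0.05. The fit was tested on simulated counts. Exact tests of 3 mice against 3 cannot go below 0.1 and were not used. FPKM served to compare levels between genes.

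The members and lists were chosen with earlier results of these data known. Genes named were all receptors, in each signalling list those with the smallest p and the highest FPKM, and the 2 genes of most similar pattern per receptor (prior count 2). A gene that this rule names is not reported here. Alternatives were RLE size factors, 2 other filters, DESeq2 1.42.0, limma 3.58.1 on FPKM, a replicate block and each library left out. Samples with the same number had correlations of deviations of 0.079, 0.117 and 0.096. Those of unlike numbers were not computed, so these values cannot decide whether the numbers pair. The numbers were taken as names only, and the main fit had no block.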

Additional observations from a re-analysis of the deposited data

How the results depend on the processing

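Over 15 alternatives, 0 of the receptors tested passed an adjusted p of 0.05, and DESeq2 gave no p for Adrb3. The lower level of Adra1d and Adra1b in aged aorta held its direction in 15 of 15, with log2 fold changes from -1.64 to -0.75 for Adra1d and from -0.90 to -0.39 for Adra1b. The groups of these genes did not overlap, so leaving out libraries or rescaling them could hardly turn the sign. Adra2c stayed positive in 14 of 14, and was not tested with at least 10 counts in every library. Leaving out both young replicate 1 and aged replicate 2, and counts without mitochondrial genome genes, were chosen after seeing the data. The number of all genes called by edgeR was 0, with 1723 at an unadjusted p below 0.05. DESeq2 called 338, and leaving out 1 library gave 0 to 110, and it was the fit without aged replicate 2 that gave 110. Of the signalling genes, DESeq2 called 2 and edgeR 0 (7 at an unadjusted p below 0.05). With 1 library left out, log2 fold changes ranged from -1.25 to 1.80 for Adra1a, from -0.21 to 0.61 for Adrb1, from -2.34 to 1.31 for Adrb3 and from -0.19 to 0.66 for Adra2a, and the median of the receptors tested from -0.51 to 0.95 (from -0.81 to 0.61 over the same 7 genes, since Adra2b passed the filter in some fits). Without both libraries the values were -1.41 for Adra1a, -0.43 for Adrb1, -2.13 for Adrb3 and -0.59 for the median. On log2(FPKM + 1) and log2(FPKM + 0.1), limma gave -0.014 and -0.047 for Adra2a, which was also the median of the receptors, and -0.12 and -0.66 for Adrb3, and moved the median of all genes from 0.02 to -0.12 and -0.19. The replicate block gave -0.62 for Adrb3 and changed no other direction or call. The cause was not tested for these. Low counts limit Adra2b and Adra2c.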
